A study of Mus musculus with 8 samples.

Results

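The forkhead (Fox) transcription factors were examined in dental tissues of *Med1* conditional knockout (cKO) and control (Ctrl) mice. Every gene of the expression table whose symbol is Fox, followed by a letter from a to s and a number, was taken as a member, which gave 44 of 23358 genes. Of these, 24 reached 1 RPKM (reads scaled to gene length in kb and to library size) in at least 2 of the 8 libraries and were tested. Of the other 20, 16 had reads but lay under that limit and 4 had no read in any library. The RNA came from the growing end of the incisor of C57BL/6 mice at 4 weeks of age, males and females not told apart. It was dissected into the cervical loop head (CLH), the site of dental epithelial stem cells, and the cervical loop tail (CLT), where their progenies lie. In cKO mice, Cre recombinase driven by the *Krt14* promoter deletes floxed exons of *Med1*, a subunit of the Mediator complex, and Cre-negative littermates served as Ctrl. Each of the 4 groups (Ctrl CLH, cKO CLH, Ctrl CLT and cKO CLT) had 2 libraries made from pooled tissue. *Krt14* is active in epithelial cells, so that deletion is not directed to mesenchyme, vessels or nerves in the same dissected pieces.

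Forkhead factors share a winged helix DNA-binding domain and are named by letter according to the sequence of that domain. Some members act in nearly every cell, such as the FoxK and FoxO factors that respond to nutrient and insulin signals, whereas others mark a cell lineage. In ectodermal organs, *Foxn1* drives differentiation of the hair cortex and is the gene mutated in nude mice, *Foxq1* is needed for the hair medulla and is mutated in satin mice, and *Foxi3* acts in progenitors of hair and teeth. *Foxf1a* (the name used in the table for *Foxf1*), *Foxf2*, *Foxd1*, *Foxd2* and *Foxc2* are known mainly from mesenchyme, kidney stroma and vessels.

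The sequences upstream of 4 members are shown because these genes are among those with the widest gaps between the CLT groups, 2 higher and 2 lower in cKO, and have a RefSeq promoter window. Each runs 5′ to 3′ over the 250 bases before the RefSeq start on the strand of the gene (GRCm38.p6, the assembly also called mm10). Capitals mark a match to the CCAAT box (CCAAT, or ATTGG on the other strand), and no other motif searched was found in these 4 windows. *Foxc1* is at chr13:31806396-31806645 (plus strand), *Foxf2* at chr13:31625566-31625815 (plus strand), *Foxi3* at chr6:70956356-70956605 (plus strand) and *Foxn1* at chr11:78386609-78386858 (minus strand).
Foxc1: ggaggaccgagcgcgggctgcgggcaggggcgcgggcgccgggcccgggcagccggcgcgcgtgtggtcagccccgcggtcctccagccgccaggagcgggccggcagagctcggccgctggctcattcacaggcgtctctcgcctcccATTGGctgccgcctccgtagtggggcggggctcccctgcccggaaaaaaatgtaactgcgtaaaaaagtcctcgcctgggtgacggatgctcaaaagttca
Foxf2: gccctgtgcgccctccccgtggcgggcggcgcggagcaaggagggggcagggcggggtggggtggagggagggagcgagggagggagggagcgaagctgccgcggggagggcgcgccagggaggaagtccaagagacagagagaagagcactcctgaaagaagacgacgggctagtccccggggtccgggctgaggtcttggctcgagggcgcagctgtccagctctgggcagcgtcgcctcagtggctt
Foxi3: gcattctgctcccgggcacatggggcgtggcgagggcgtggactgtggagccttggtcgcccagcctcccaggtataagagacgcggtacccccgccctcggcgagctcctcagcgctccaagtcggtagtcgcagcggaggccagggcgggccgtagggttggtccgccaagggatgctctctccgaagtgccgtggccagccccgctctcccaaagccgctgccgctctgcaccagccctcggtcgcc
Foxn1: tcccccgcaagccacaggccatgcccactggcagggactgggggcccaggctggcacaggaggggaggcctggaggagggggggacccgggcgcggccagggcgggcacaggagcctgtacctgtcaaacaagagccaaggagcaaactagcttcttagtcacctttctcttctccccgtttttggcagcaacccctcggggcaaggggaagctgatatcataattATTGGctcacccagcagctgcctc

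The *Foxc1*, *Foxf2* and *Foxi3* windows were rich in CpG, with 29, 21 and 24 CpG dinucleotides and GC contents of 70.8%, 71.6% and 70.4%. The *Foxn1* window held 7 CpG at 63.2% GC. Over all 32851 RefSeq windows of the same length, the medians were 6 CpG and 52.4% GC. A window was found for 28 of the 44 members, 14 of them among the 24 tested, and their 33 windows had medians of 16 CpG and 62% GC. The CCAAT box was in 14 of the 33 windows and in 33.8% of all windows, on either strand. The TATA box (TATAAA) was in 3 member windows and 12.4% of all, the AP-1 site (TGANTCA) in 1 and 6.75%, the forkhead site itself (GTAAACA) in 1 and 3.17%, and the EGR site (GCGTGGGCG) in 0 and 0.536%. Matches of different motifs may share letters, which was not counted. Such matches describe letters in these windows and say nothing about binding.

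Library totals, recovered from the RPKM steps, were 26591613 to 34420181 reads. The Ctrl CLT libraries stood apart from each other: 34.6% of the genes tested differed over 1.5-fold between them, against 0.763% to 1.117% in the other pairs. The level of *Med1*, the targeted gene, did not separate the labels in a single direction. Both cKO libraries lay below both Ctrl libraries in CLH and above both in CLT. A sum over the whole gene does not measure the loss of a few exons. The *Med1* RPKM was 7.71 and 9.12 (Ctrl CLH), 7.10 and 7.03 (cKO CLH), 4.83 and 8.71 (Ctrl CLT), and 9.15 and 8.96 (cKO CLT). Directions below are thus those of the libraries as labelled. The labels call the samples dental epithelial cells, and a list of epithelial genes that includes *Krt14*, *Krt5*, *Cdh1* and *Epcam* summed to 596 to 694 RPKM in CLH and 824 to 1916 RPKM in CLT. Mesenchyme genes summed to 1400 to 2966 RPKM, so the pieces also held other tissue. Fewer cells of a type and less RNA per cell cannot be told apart in such pieces. The duplicates were biological and drew on 2 litters, each library being a pool, so p-values measure the spread between pools of animals and not between single mice.

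In CLT, the composition of the family differed between cKO and Ctrl more than its sum did. Members were grouped by role with earlier results of these data known, so the group shares rest in part on the grouping. The 44 genes summed to 180, 183, 184 and 186 RPKM in the CLH libraries (Ctrl 1, Ctrl 2, cKO 1 and cKO 2), 135 and 176 RPKM (Ctrl CLT) and 199.9 and 198 RPKM (cKO CLT). The skin and hair members (*Foxn1*, *Foxq1*, *Foxe1*, *Foxc1* and *Foxi1* to *Foxi3*) held 5.63% to 5.95% of that sum in CLH, 17.05% and 5.97% (Ctrl CLT) and 35.4% and 36.1% (cKO CLT). The mesenchyme and vessel members held 26.5% to 29.5% in CLH, 11.6% and 21.3% (Ctrl CLT) and 0.881% and 0.789% (cKO CLT). The leading member was *Foxf2* in all 4 CLH libraries, *Foxo1* in both Ctrl CLT libraries and *Foxn1* in both cKO CLT libraries. Members at 1 RPKM or more numbered 21 in each CLH library, 20 and 22 (Ctrl CLT) and 18 in each cKO CLT library.

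**Figure D1:**
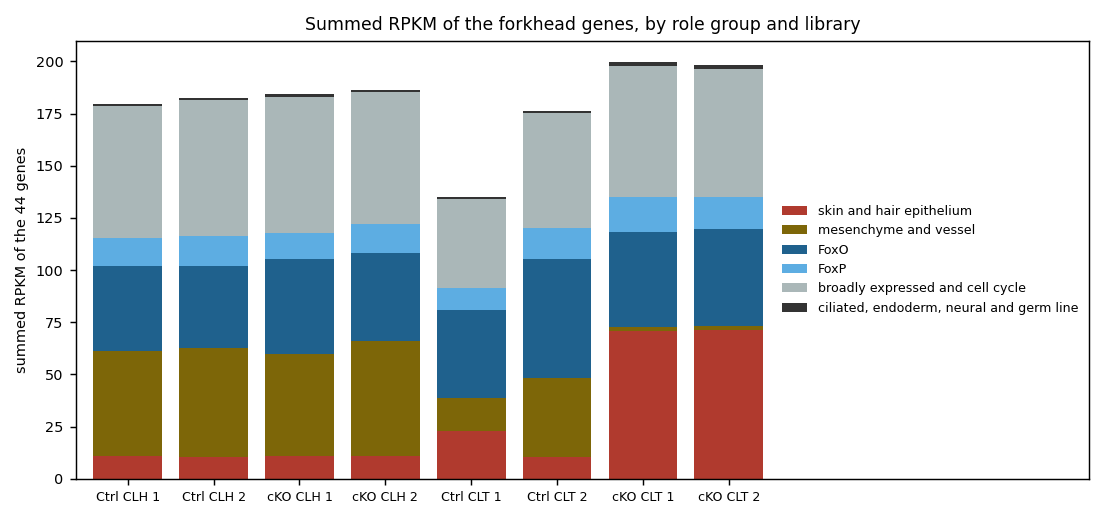
Summed RPKM of the 44 forkhead genes in each of the 8 libraries (y axis), stacked by role group. The skin and hair group takes 35.4% and 36.1% of the sum in cKO CLT and under 6% in CLH, while the mesenchyme and vessel group takes 0.881% and 0.789% in cKO CLT against 26.5% to 29.5% in CLH.

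The cKO effect in CLT, where enamel-forming progenies lie, was the first comparison. *Foxf2* fell and was the only member past an adjusted p of 0.05 (limma, Benjamini-Hochberg over 14148 genes), while 1.75% of all genes tested passed and 1.68% passed as lower. *Foxn1*, *Foxc1*, *Foxe1* and *Foxq1* had fitted log2 fold changes of at least 1, *Foxf1a*, *Foxd2* and *Foxi3* of -1 or less, and none of these 7 passed the threshold. Of all genes, 11.5% and 11% reached these sizes. At an unadjusted p under 0.05 there were 6 members on the higher side and 5 on the lower side, 45.8% of the 24, against 36.2% of all genes tested (19.8% higher and 16.4% lower). The 2 groups did not overlap for 20 members (12 higher in cKO, 8 lower), which is 83.3%, against 72.2% of all genes (37.2% higher and 35.1% lower). The members' median log2 fold change was 0.16 and that of all genes -0.01. The *Foxf2* call was lost without either cKO CLT library. When 1 of the Ctrl CLT libraries was left out, more members passed, and so did more of all genes (counts further below). *Foxe1* passed the filter on low values only through the cKO CLT libraries, so its higher level there, and its place in every count of members on the higher side in cKO CLT, follow from the filter. *Foxn1* reached 1 RPKM only in Ctrl CLT 1 and the cKO CLT libraries, so it too needed cKO CLT to be tested. Its place in those counts follows in part from the filter. The counts with a library left out assume that the lone library varies like the other pair.

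**Figure D2:**
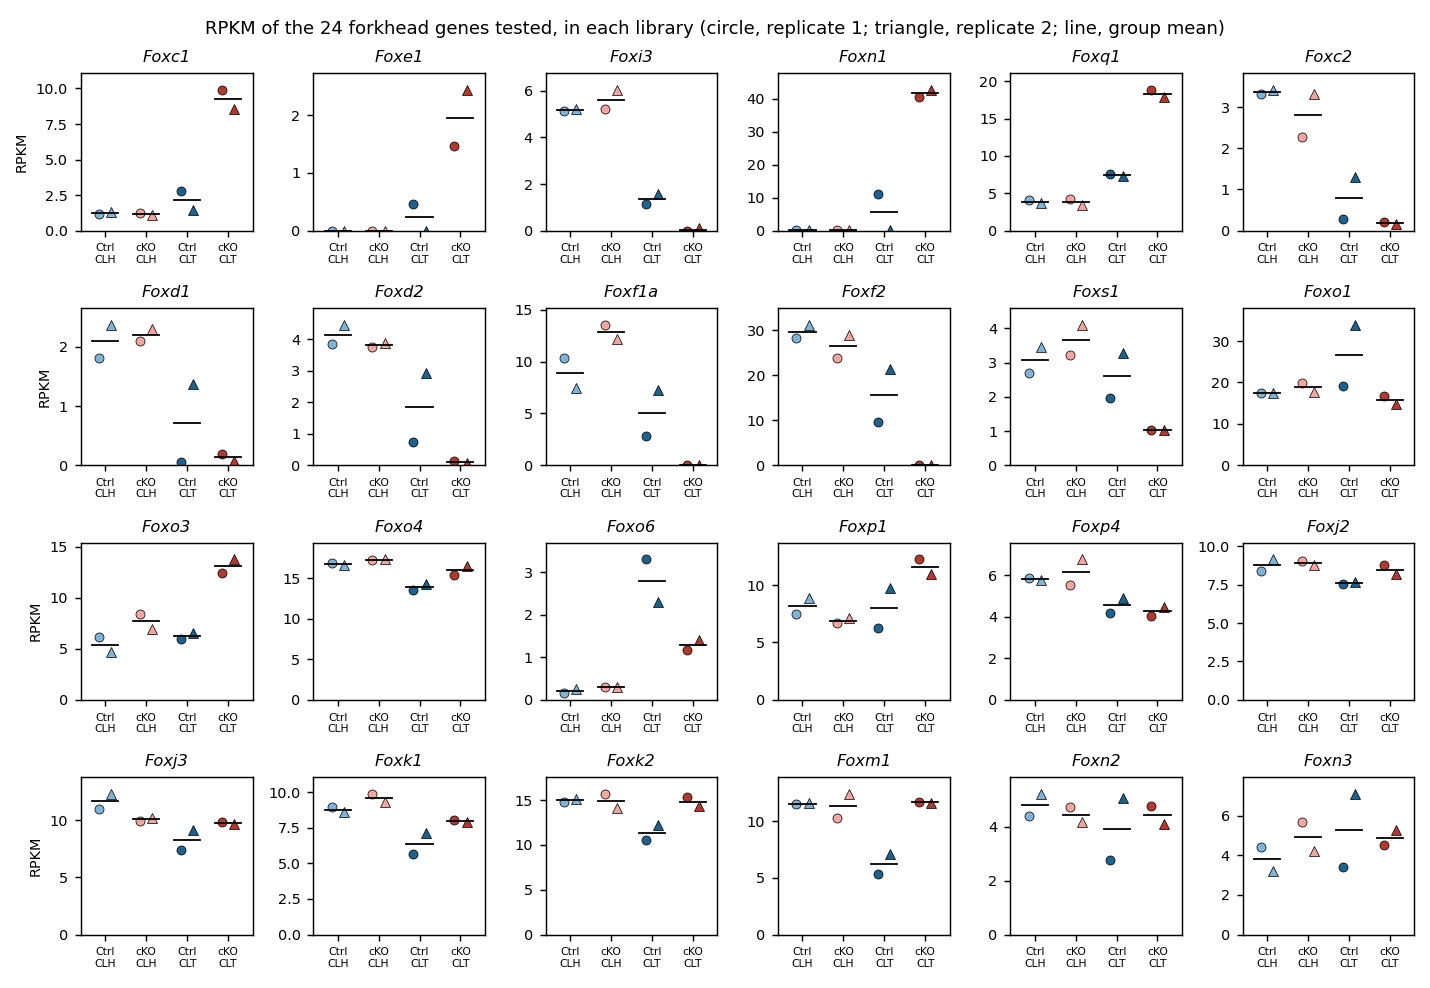
RPKM (y axis, linear, from 0, its own scale for each gene) of the 24 forkhead genes tested in each library, with circles for replicate 1, triangles for replicate 2 and lines for group means. *Foxn1*, *Foxc1* and *Foxq1* are highest in both cKO CLT libraries, and *Foxf2*, *Foxf1a*, *Foxi3* and *Foxd2* are at or near 0 there.

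Among the skin and hair members, *Foxn1* had the highest fitted log2 fold change in CLT. Its RPKM was 0.267 and 0.104 (Ctrl CLH), 0.118 and 0.162 (cKO CLH), 11.01 and 0.165 (Ctrl CLT), and 40.6 and 42.6 (cKO CLT). Both cKO CLT libraries were above every other library, and Ctrl CLT 1 alone was high among the Ctrl. The log2 fold change of (RPKM + 1) was 3.51 (adjusted p = 0.13 by limma, SE 1.19). Without Ctrl CLT 1 it was 5.19, and without Ctrl CLT 2 it was 1.83.

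*Foxq1*, the satin gene, gave the tighter picture. Its RPKM was 4.12 and 3.65 (Ctrl CLH), 4.24 and 3.40 (cKO CLH), 7.58 and 7.35 (Ctrl CLT), and 18.8 and 17.9 (cKO CLT). Here the Ctrl CLT libraries lay close together, and the cKO mean was 2.46 times theirs. The log2 fold change was 1.19 (adjusted p = 0.055 by limma, SE 0.15), just outside the threshold, and 1.21 and 1.17 without Ctrl CLT 1 or 2. An opposite-strand gene, *A530084C06Rik*, overlaps its exons, and the strand setting of the counting is not given in the sources used here, so its reads may include some of that gene.

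*Foxc1*, known from the eye, from skull bones and from the resting state of hair follicle stem cells, had 1.17 and 1.32 RPKM (Ctrl CLH) and 1.23 and 1.119 (cKO CLH). In CLT it had 2.81 and 1.47 RPKM in Ctrl and 9.89 and 8.57 in cKO. The CLT groups did not overlap, and the cKO mean was 4.31 times the Ctrl mean, with a log2 fold change of 1.73 (adjusted p = 0.064 by limma, SE 0.28). *Foxe1*, a factor of the thyroid and of the hair follicle, had no read in any CLH library, 0.459 and 0 RPKM (Ctrl CLT) and 1.47 and 2.43 RPKM (cKO CLT). All of its Ctrl CLT reads lay in Ctrl CLT 1. The 120 cKO reads against 15 Ctrl reads gave a ratio of 8.08 after scaling to library totals (95% interval 4.71 to 14.9, exact binomial, counting error only). Its fitted log2 fold change of 1.27 is given as a description, since it was tested only because of its level in cKO CLT.

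*Foxi3* went the other way from the rest of the skin and hair group. Its RPKM was 5.13 and 5.21 (Ctrl CLH), 5.21 and 6.03 (cKO CLH), 1.16 and 1.56 (Ctrl CLT), and 0 and 0.0912 (cKO CLT). Levels in CLH were close in all 4 libraries, and cKO CLT was nearly empty with 3 reads in all. Against 91 reads in Ctrl CLT this is a ratio of 30.0 (95% interval 9.96 to 148, counting error only). The log2 fold change of -1.17 (adjusted p = 0.065 by limma, SE 0.20) understates that ratio, because 1 RPKM is added to low values. The study itself names *Foxc1*, *Foxn1*, *Foxq1*, *Foxo1*, *Foxo3* and *Foxp1* from these samples, so the direction of these members is not independent evidence.

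Values of other tissues moved with the skin and hair members, and their part was not tested. Hair keratins and other hair genes (18 genes, described further below) summed to 250 to 261 RPKM in CLH, 3032 and 241 (Ctrl CLT) and 8695 and 9557 (cKO CLT). In CLH most of that sum was *Dlx3* (135 to 144 RPKM) and *Msx2* (90.0 to 95.9), as it was in Ctrl CLT 2 (120 and 89.9). The hair shaft keratin *Krt31* had 0.0235 to 0.0750 RPKM in CLH and 0.143 in Ctrl CLT 2. In cKO CLT the largest value was that of *Krt71*, an inner root sheath keratin (3726 and 4189 RPKM). Melanocyte genes (6 of 6 found) summed to 4.26 to 4.58 RPKM in CLH, 134 and 10.3 (Ctrl CLT) and 414 and 414 (cKO CLT). Skeletal muscle genes (5 of 5 found) summed to 26.1 to 30.4 RPKM in CLH, 638 and 48.0 (Ctrl CLT) and 1745 and 1921 (cKO CLT). In each of these lists Ctrl CLT 1 lay above Ctrl CLT 2, as it did for *Foxn1*. *Tyrp1* and *Mlana* were at 0 in some CLH libraries and *Mlana* in Ctrl CLT 2, and *Myh4*, a muscle myosin, in Ctrl CLH 2, but no melanocyte or muscle marker was at 0 in cKO CLT or Ctrl CLT 1.

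All 6 mesenchyme and vessel members tested had log2 fold changes below 0 in CLT, with a median of -1.02. Of all 14148 genes tested, 7143 were below 0. The role groups were chosen with earlier results of these data known, and *Foxc1* (1.73) was placed with skin and hair. The count and the median thus rest in part on the grouping. *Foxf2*, expressed in palate and gut mesenchyme and in pericytes, had 28.2 and 31.3 RPKM (Ctrl CLH), 23.9 and 29.1 (cKO CLH), 9.74 and 21.4 (Ctrl CLT), and 0.121 and 0.124 (cKO CLT). In reads, this was 2019 in Ctrl CLT against 16 in cKO CLT, a ratio of 125 (95% interval 76.8 to 219, counting error only). The log2 fold change was -3.79 (adjusted p = 0.048 by limma, SE 0.41), and it was -4.32 and -3.26 without Ctrl CLT 1 or 2. Its adjusted p ran from 6.15e-06 to 0.28 over the alternatives, and the call was lost without either cKO CLT library, with no filter on low values and by voom. A gene on the other strand, *Gm27516*, overlaps its exons.

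*Foxf1a*, the close relative of *Foxf2* in mesenchyme that receives Hedgehog signals, had 10.4 and 7.43 RPKM (Ctrl CLH), 13.6 and 12.2 (cKO CLH), 2.80 and 7.26 (Ctrl CLT), and 0 and 0.0345 (cKO CLT). In cKO CLT this was 1 read against 292 in Ctrl CLT, a ratio of 289 (95% interval 51.5 to 11461, counting error only). Its log2 fold change was -2.46 (adjusted p = 0.067 by limma, SE 0.43), and *Gm27530* overlaps it on the other strand. *Foxd2*, known from kidney and facial mesenchyme, had 3.84 and 4.46 RPKM (Ctrl CLH) and 3.74 and 3.88 (cKO CLH). It had 0.744 and 2.94 RPKM (Ctrl CLT) and 0.136 and 0.0840 (cKO CLT). Its groups did not overlap in CLT (log2 fold change -1.24, adjusted p = 0.14 by limma, SE 0.45).

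*Foxc2*, a factor of lymphatic valves, and *Foxd1*, a factor of kidney stroma and dermal fibroblast precursors, differed widely between the Ctrl CLT libraries. *Foxc2* had 3.32 and 3.41 RPKM (Ctrl CLH), 2.28 and 3.32 (cKO CLH), 0.276 and 1.31 (Ctrl CLT) and 0.210 and 0.162 (cKO CLT). *Foxd1* had 1.82 and 2.37 RPKM (Ctrl CLH), 2.11 and 2.30 (cKO CLH), 0.0556 and 1.38 (Ctrl CLT) and 0.188 and 0.0745 (cKO CLT). For *Foxd1* the cKO CLT libraries lay above Ctrl CLT 1 and below Ctrl CLT 2, so the groups overlapped, and the log2 fold change of -0.49 became -1.07 without Ctrl CLT 1 and 0.10 without Ctrl CLT 2. That of *Foxc2*, -0.54, became -0.96 and -0.11. *Foxs1*, which marks pericytes, kept 1.03 RPKM in both cKO CLT libraries, against 1.96 and 3.27 (Ctrl CLT), 2.68 and 3.46 (Ctrl CLH), and 3.21 and 4.10 (cKO CLH) (CLT log2 fold change -0.80, adjusted p = 0.11 by limma, SE 0.25).

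General mesenchyme markers were also lower on balance, but none was lost. Of 7 mesenchyme genes, 6 had log2 fold changes below 0 in CLT with a list median of -1.49, 0 passed the threshold and 6 had an unadjusted p under 0.05. *Col1a1*, the main collagen of bone and dentin, had 1067 and 1335 RPKM (Ctrl CLT) and 376 and 472 (cKO CLT), while *Col3a1*, a collagen of loose connective tissue, had 527 and 456 RPKM (Ctrl CLT) and 874 and 979 (cKO CLT). No marker of the list was at 0 in any library. Endothelial genes (5 of 5 found) summed to 59.0 and 89.9 RPKM (Ctrl CLT) and 54.3 and 54.6 (cKO CLT). They did not move together: 2 had CLT log2 fold changes above 0 and 3 below. *Pecam1* had 18.5 and 22.3 RPKM (Ctrl CLT) and 25.4 and 24.2 (cKO CLT), and *Emcn* 15.6 and 30.5 (Ctrl CLT) and 4.54 and 4.22 (cKO CLT). The part of tissue makeup in the mesenchyme forkhead values was not tested.

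The 4 FoxO factors, which insulin and growth factor signals keep out of the nucleus, did not move one way, and none passed the threshold in CLT. *Foxo1*, which controls metabolism and differentiation in many tissues, had 17.5 RPKM in both Ctrl CLH libraries, 19.8 and 17.8 (cKO CLH), 19.3 and 34.0 (Ctrl CLT), and 16.8 and 14.7 (cKO CLT). Ctrl CLT 2 stood far above the other 7 libraries, and the log2 fold change of -0.67 (adjusted p = 0.20 by limma, SE 0.31) moved to -1.06 when Ctrl CLT 1 was left out and to -0.28 when Ctrl CLT 2 was. *Foxo3*, a factor of stress resistance and autophagy, had 6.15 and 4.65 RPKM (Ctrl CLH), 8.44 and 6.96 (cKO CLH), 6.01 and 6.55 (Ctrl CLT), and 12.4 and 13.8 (cKO CLT). It was higher in both cKO libraries of each region, with a CLT log2 fold change of 0.95 (adjusted p = 0.064 by limma, SE 0.16) that changed little without Ctrl CLT 1 (0.90) or 2 (1.01).

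*Foxo6*, known mostly from brain and the growing face, was higher in every CLT library than in any CLH library. It had 0.172 and 0.2502 RPKM (Ctrl CLH), 0.293 and 0.294 (cKO CLH), 3.30 and 2.31 (Ctrl CLT), and 1.17 and 1.41 (cKO CLT). It was tested only through its CLT levels, so this step between regions follows from the filter. Its CLT log2 fold change was -0.72 (adjusted p = 0.11 by limma, SE 0.22). *Foxo4* varied little in size but was lower in CLT than in every CLH library of the same genotype, at 16.9, 16.6, 17.2 and 17.3 RPKM in the CLH libraries, 13.6 and 14.2 (Ctrl CLT) and 15.4 and 16.5 (cKO CLT).

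*Foxp1*, a repressor that keeps hair follicle stem cells at rest, had 7.45 and 8.84 RPKM (Ctrl CLH), 6.69 and 7.10 (cKO CLH), 6.29 and 9.77 (Ctrl CLT), and 12.2 and 10.98 (cKO CLT). The CLT groups did not overlap, but the gap was small beside the spread of Ctrl (log2 fold change 0.51, adjusted p = 0.22 by limma, SE 0.25). *Foxp4*, its partner in airway and gut, had 5.85 and 5.77 RPKM (Ctrl CLH), 5.51 and 6.77 (cKO CLH), 4.19 and 4.92 (Ctrl CLT), and 4.04 and 4.48 (cKO CLT), with overlap in both regions. *Foxp2* and *Foxp3*, the latter the factor of regulatory T cells, had at most 23 and 12 reads in any library. T cell genes (5 of 5 found) summed to 1.84 RPKM (cKO CLH 1) to 6.99997 RPKM (cKO CLT 1).

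Of the 7 broadly expressed members, 6 had log2 fold changes above 0 in CLT, with a group median of 0.22 and 0 past the threshold. *Foxm1*, which switches on genes of the late cell cycle, had 11.5 and 11.6 RPKM (Ctrl CLH), 10.3 and 12.4 (cKO CLH), 5.32 and 7.09 (Ctrl CLT), and 11.8 and 11.7 (cKO CLT). The Ctrl CLT libraries were below the other 6, and the CLT log2 fold change was 0.83 (adjusted p = 0.083 by limma, SE 0.19). *Foxk1*, which with *Foxk2* restrains autophagy genes, had 8.92 and 8.58 RPKM (Ctrl CLH), 9.86 and 9.29 (cKO CLH), 5.62 and 7.15 (Ctrl CLT), and 8.05 and 7.91 (cKO CLT). *Foxk2* had 14.8 and 15.1 RPKM (Ctrl CLH), 15.7 and 14.1 (cKO CLH), 10.5 and 12.2 (Ctrl CLT), and 15.3 and 14.3 (cKO CLT). In both, the Ctrl CLT libraries were the lowest of the 8. Exons of *Foxm1*, *Foxj2*, *Foxo1* and *Foxp1* also overlap those of other annotated genes, so their counts are uncertain to that extent. *Foxj2*, *Foxj3*, *Foxn2* and *Foxn3* had CLT log2 fold changes of -0.02 to 0.22.

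**Figure D3:**
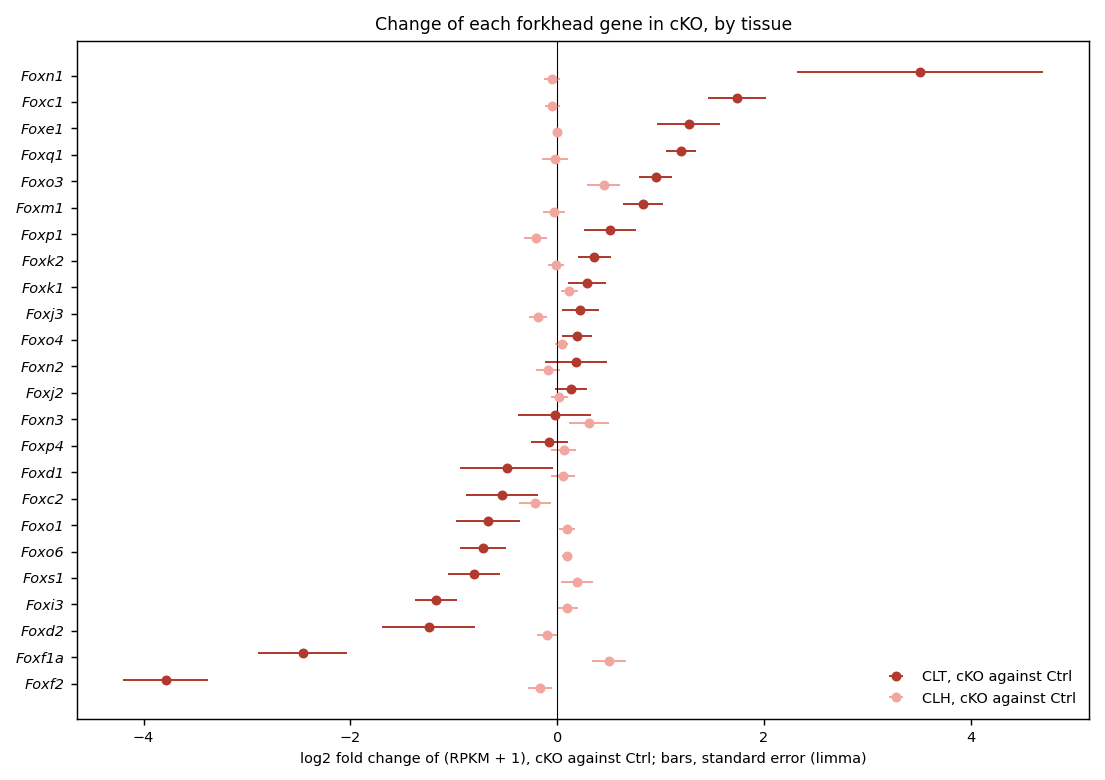
Fitted log2 fold change of (RPKM + 1), cKO against Ctrl (x axis), for each of the 24 forkhead genes tested, in CLT (dark) and in CLH (light), with bars of 1 standard error from limma. In CLT the values run from -3.79 (*Foxf2*) to 3.51 (*Foxn1*), and in CLH from -0.21 (*Foxc2*) to 0.50 (*Foxf1a*).

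In CLH, where the stem cells lie, the cKO and Ctrl libraries held nearly the same forkhead levels. By limma 0 of 24 members passed the threshold, 2 had an unadjusted p under 0.05 (8.33%), and voom on recovered reads called 0. Among all 14148 genes 0% passed and 7.26% had an unadjusted p under 0.05 (4.83% as higher). The 2 were *Foxf1a* (log2 fold change 0.50, adjusted p = 0.69, SE 0.17) and *Foxo3* (0.45, adjusted p = 0.69, SE 0.16), and both were higher in each cKO library than in each Ctrl library. The lowest value was -0.21 (adjusted p = 0.74, SE 0.15) for *Foxc2*. Groups did not overlap for 9 members (37.5%), against 38.7% of all genes. The members' median log2 fold change was 0.01 and that of all genes -0.01. *Foxn1*, *Foxe1* and *Foxc1*, high in cKO CLT, were no higher in cKO CLH than in Ctrl CLH by their means.

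Whether the 2 regions differed in their response to cKO was asked of all 8 libraries at once. For each gene this fit takes a single spread for all 4 groups, though the Ctrl CLT pair varied more than the others. Its p-values thus rest on an equal spread that these libraries do not show. Of the 24 members, 7 passed (29.2%), against 17.6% of all genes tested (8.05% with a higher and 9.58% with a lower effect in CLT). The effect was more positive in CLT for *Foxc1* (difference 1.78, adjusted p = 0.019 by limma, SE 0.31), *Foxq1* (1.22, adjusted p = 0.014, SE 0.19) and *Foxm1* (0.86, adjusted p = 0.045, SE 0.22). The remaining one was *Foxe1* (1.27), whose pass follows from the filter. It was more negative in CLT for *Foxf2* (-3.62, adjusted p = 0.0087 by limma, SE 0.46), *Foxf1a* (-2.96, adjusted p = 0.018, SE 0.51) and *Foxi3* (-1.27, adjusted p = 0.017, SE 0.21). The members' median difference was 0.13, and that of all genes -0.01. With a pseudocount of 0.1 or median-of-ratios scaling 6 members passed, *Foxe1* being lost. With no filter or with the replicate block 5 passed, without *Foxe1* and *Foxm1*, and by voom 5 passed, without *Foxe1* and *Foxf1a*. This test shares its Ctrl CLT libraries with the CLT comparison and is no second support for it. All 7 calls were lost without any one of the 4 CLH libraries or the 2 cKO CLT libraries. When 1 of the Ctrl CLT libraries was left out, more members passed, and so did more of all genes (counts further below).

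Along the normal tooth, from CLH to CLT in Ctrl mice, 16 of 24 members had log2 fold changes below 0, as did 9139 of all 14148 genes. By limma 0 members passed (5 at an unadjusted p under 0.05, 20.8%), and voom called 0. Of all genes tested, 0.00707% passed and 13.1% had an unadjusted p under 0.05 (4.15% higher and 9% lower). The members' median log2 fold change was -0.26 and that of all genes -0.13. Groups did not overlap for 17 members (70.8%), against 52% of all genes, and 13 of the 17 were lower in CLT (36.8% of all genes). *Foxi3* (log2 fold change -1.39, adjusted p = 0.30, SE 0.19), *Foxc2* (-1.35, adjusted p = 0.34, SE 0.36) and *Foxm1* (-0.81, adjusted p = 0.32, SE 0.19) were the lower ones at an unadjusted p under 0.05. *Foxo6* (1.64, adjusted p = 0.30, SE 0.24) and *Foxq1* (0.79, adjusted p = 0.31, SE 0.16) were the higher ones. *Foxo6* passed the filter on low values only through CLT, and *Foxc2*, *Foxd1* and *Foxd2* only with the help of CLH. Their places in these counts follow in part from the filter. *Foxn1* had a fitted value of 1.66 (adjusted p = 0.55, SE 1.21) that came from Ctrl CLT 1 and was -0.021 without it.

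For 21 of the 24 members (87.5%), Ctrl CLT 2 lay closer than Ctrl CLT 1 to the Ctrl CLH mean, measured in RPKM without logs. Over all genes tested the share was 66.6%. When 1 of the Ctrl CLT libraries was left out, more members passed between Ctrl CLT and Ctrl CLH, and so did more of all genes (counts further below). The replicates' median difference was 0.54 (log2) over the members in Ctrl CLT and 0.09 to 0.14 in the other groups.

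In cKO mice, 16 of 24 members passed between CLT and CLH (66.7%), against 74% of all genes tested (28.9% higher and 45.1% lower), a share no larger than in the whole table. The 7 that rose were *Foxn1* (log2 fold change 5.22, SE 0.10), *Foxc1* (2.23, SE 0.11), *Foxq1* (2.01, SE 0.11), *Foxe1* (1.54, SE 0.15, fixed by the filter), *Foxo6* (0.82, SE 0.11), *Foxo3* (0.70, SE 0.11) and *Foxp1* (0.67, SE 0.10). Their adjusted p ran from 1.29e-09 for *Foxn1* to 0.00057 for *Foxo3* (limma). *Foxn1* and *Foxo6* were under 1 RPKM in every CLH library and were tested only through CLT, *Foxn1* only with the help of cKO CLT. Their calls too depend on the filter. The 9 that fell were *Foxf2* (-4.61, SE 0.12), *Foxf1a* (-3.77, SE 0.11), *Foxi3* (-2.66, SE 0.11), *Foxd2* (-2.12, SE 0.10), *Foxc2* (-1.67, SE 0.14), *Foxd1* (-1.50, SE 0.11), *Foxs1* (-1.19, SE 0.12), *Foxp4* (-0.44, SE 0.12) and *Foxk1* (-0.24, SE 0.09). Their adjusted p ran from 7.77e-09 for *Foxf2* to 0.047 for *Foxk1* (limma).

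Every mesenchyme and vessel member tested was thus lower in cKO CLT than in cKO CLH, and each skin and hair member tested but *Foxi3* was higher. *Foxc2*, *Foxd1* and *Foxd2* reached 1 RPKM in CLT only in Ctrl CLT 2, so they needed CLH to be tested. Their lower levels in cKO CLT thus follow in part from the filter, as do the higher levels of *Foxe1* and *Foxn1*. For genes with few reads the fitted values are no measure of the ratio. *Foxe1* had 120 reads in cKO CLT and 0 in cKO CLH, for which the exact 95% interval of the ratio starts at 36.7 (counting error only). *Foxf1a* had 868 reads in cKO CLH and 1 in cKO CLT, a ratio of 758 (95% interval 136 to 29987, counting error only). The calls of *Foxk1* and *Foxp4* were the fragile ones: both were lost under median-of-ratios scaling and without cKO CLH 2 or either cKO CLT library, and *Foxk1* also without cKO CLH 1. The same comparison in Ctrl mice is given above. The comparisons share libraries, so their values stand side by side and not as separate support.

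Several members lie next to each other on the chromosomes, and their fitted changes in CLT had different signs on chromosome 13. On chromosome 13 (mm10), *Foxq1* (31558170 to 31560974), *Foxf2* (31625816 to 31631406) and *Foxc1* (31806646 to 31810635) are separated by 64.8 kb and 175 kb. Their CLT log2 fold changes, cKO against Ctrl, were 1.19, -3.79 and 1.73. The only gene of the table between *Foxq1* and *Foxf2*, *1700018A04Rik*, fell (-1.76, adjusted p = 0.045, limma), and *Gmds*, next to *Foxc1* on the far side, had -1.69 (adjusted p = 0.097). On chromosome 8, *Foxf1a* (121084474 to 121086879) lies 29.3 kb from *Foxc2* (121116171 to 121118894), which lies 8.79 kb from *Foxl1*. *Foxf1a* and *Foxc2* had -2.46 and -0.54, *Mthfsd* between them -0.17, and *1110050K14Rik* on the other side of *Foxf1a* -4.02 (adjusted p = 0.066, limma). On chromosome 4, *Foxd2* (-1.24) and the noncoding neighbour *9130206I24Rik* (-1.36, adjusted p = 0.093, limma) lie beside *Foxe3*, which had 2 reads in all libraries together.

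**Figure D4:**
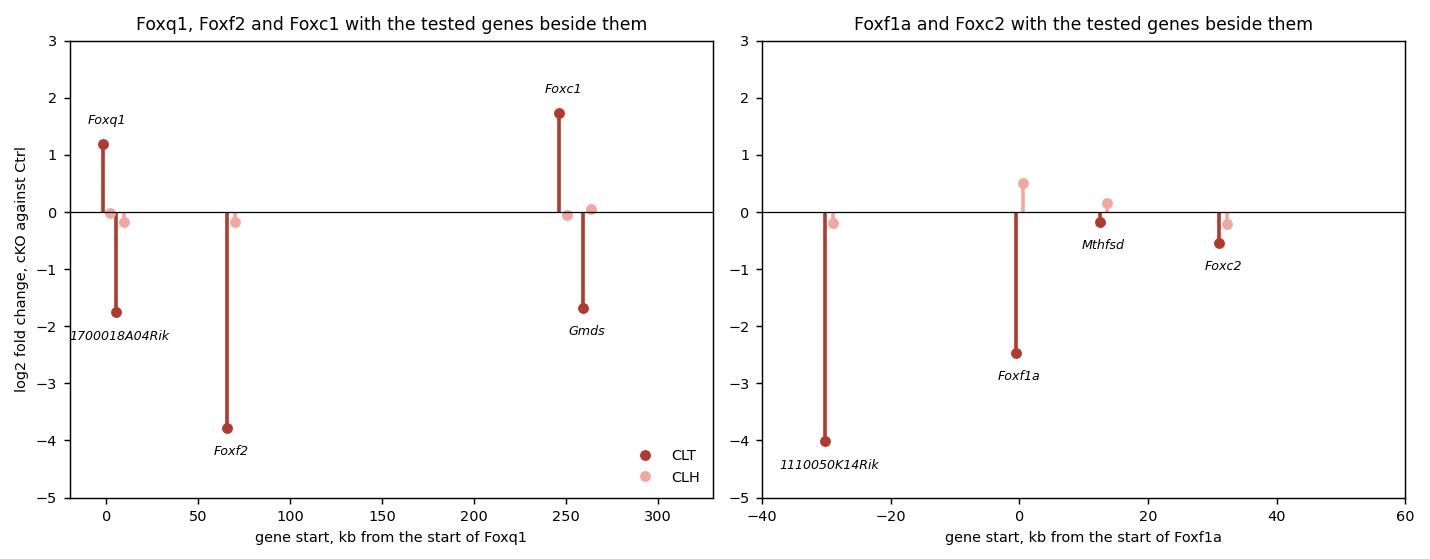
Fitted log2 fold change, cKO against Ctrl (y axis), of *Foxq1*, *Foxf2* and *Foxc1* (left) and of *Foxf1a* and *Foxc2* (right) with the tested genes beside them, by distance of each gene's start from that of the first named member in kb (x axis). CLT (dark) and CLH (light) marks are set slightly apart, and in CLT *Foxf2* at -3.79 lies between *Foxq1* at 1.19 and *Foxc1* at 1.73.

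Genes tied to forkhead factors were read as lists, given here by counts and medians with no test of a list. Targets of FOXM1 (16 genes of mitosis) were, like *Foxm1*, lowest in Ctrl CLT: they summed to 288 to 311 RPKM in CLH, 128 and 178 (Ctrl CLT) and 268 and 263 (cKO CLT). In CLT all 16 had log2 fold changes above 0, with a median of 0.73, while 49.5% of all genes were above 0. By limma 0 of the 16 passed (9 at an unadjusted p under 0.05). *Nek2*, a centrosome kinase, was highest at 1.17 (adjusted p = 0.060, SE 0.16) and *Cenpe*, a kinetochore motor, lowest at 0.06. Between Ctrl CLT and Ctrl CLH all 16 were below 0, with a median of -0.90, against -0.13 over all genes. Between cKO CLT and cKO CLH the targets and *Foxm1* parted: 13 of 16 were below 0 (median -0.24, 9 called lower and 2 higher by limma), while *Foxm1* had 0.05 (adjusted p = 0.71).

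Genes upstream of FoxO (20 genes of insulin signalling and FoxO modifiers) had a CLT median of -0.21, with 0 past the threshold and 6 at an unadjusted p under 0.05. *Igf1*, the growth factor, was lowest (10.7 and 28.7 RPKM for Ctrl CLT, 2.12 and 1.90 for cKO CLT, log2 fold change -2.63, adjusted p = 0.070, limma). *Pik3cb*, a catalytic subunit of PI3 kinase, was highest (6.39 and 2.64 RPKM for Ctrl CLT, 16.3 and 15.5 for cKO CLT, log2 fold change 1.70, adjusted p = 0.081). FoxO targets (24 genes) had a CLT median of 0.04, with 14 above and 10 below 0, and 0 passed (9 at an unadjusted p under 0.05). *Sesn3*, a brake on mTORC1, was lowest at -1.39 (adjusted p = 0.069) and *Trim63*, a ubiquitin ligase of muscle, highest at 2.08 (adjusted p = 0.091), beside the skeletal muscle genes given above.

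Hair factors and keratins near *Foxn1* and *Foxq1* in the hair programme (18 genes) had a CLT median of 4.38, with 17 above 0. By limma 0 passed and 2 had an unadjusted p under 0.05, the Ctrl CLT libraries being far apart: *Krt71*, a keratin of the inner root sheath, had 1229 and 1.30 RPKM (Ctrl CLT) and 3726 and 4189 (cKO CLT). *Hoxc13*, a factor that works with *Foxn1* in the hair cortex, had 21.4 and 0.0309 RPKM (Ctrl CLT) and 65.4 and 61.8 (cKO CLT), with 0 to 0.0695 in CLH. *Msx2*, also shared with teeth, was the one below 0 (-0.20). The hair shaft keratins of the list, *Hoxc13* and *Gata3* were under 1 RPKM in all CLH libraries and in Ctrl CLT 2. They passed the filter on low values only with the help of cKO CLT. Their values above 0, and with them the list median, thus follow in part from the filter. Ectoderm factors (14 genes) had a CLT median of 1.27, with 11 above 0. *Tfap2a*, an early ectoderm factor, rose (9.18 and 7.26 RPKM for Ctrl CLT, 28.4 and 26.0 for cKO CLT, log2 fold change 1.62, adjusted p = 0.049 by limma, SE 0.18) and was the only one that passed. *Grhl1*, an epidermal factor, was highest at 3.97, and it too passed the filter only with the help of cKO CLT.

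Hedgehog genes and corepressors that bind FoxP factors (13 genes) had a CLT median of 0.07, with 0 past the threshold and 3 at an unadjusted p under 0.05. *Shh*, the ligand made by dental epithelium, was lowest: 65.2 and 87.6 RPKM (Ctrl CLH), 54.4 and 61.9 (cKO CLH), 10.5 and 46.1 (Ctrl CLT), and 4.13 and 3.52 (cKO CLT) (CLT log2 fold change -2.27, adjusted p = 0.12 by limma, SE 0.73). *Gli1*, a Hedgehog target and reader, had 32.6 and 38.5 RPKM (Ctrl CLT) and 17.9 and 19.6 (cKO CLT), beside the low *Foxf1a* and *Foxf2* of the same libraries. *Gatad2b*, a part of the NuRD corepressor, was highest at 0.78 (adjusted p = 0.073).

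**Figure D5:**
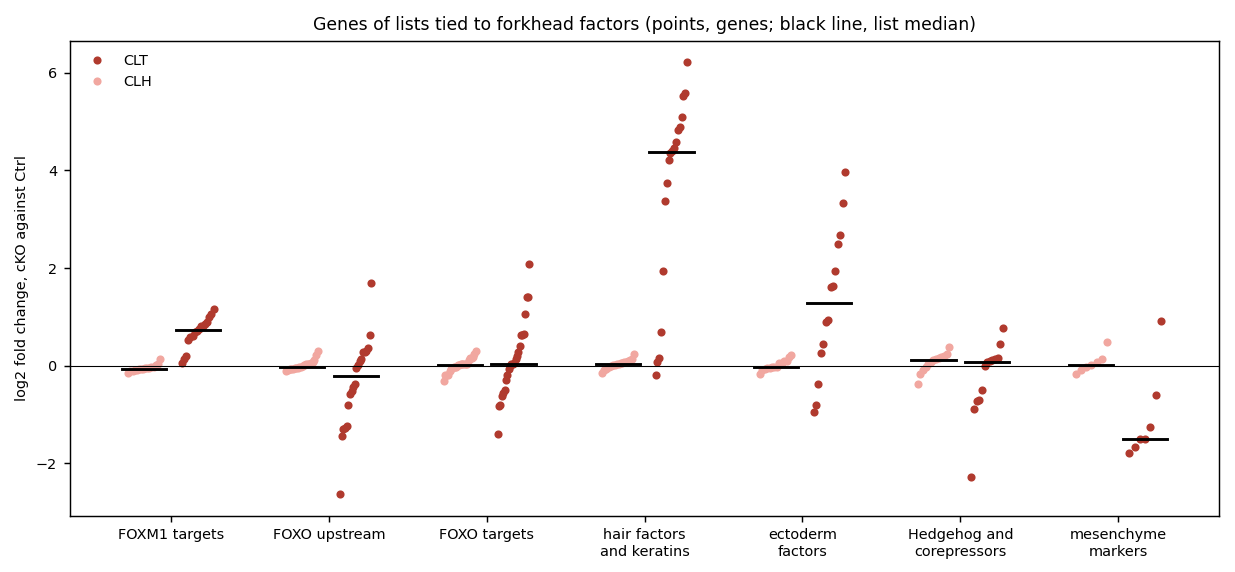
Fitted log2 fold change, cKO against Ctrl (y axis), of each gene in the lists tied to forkhead factors and of the mesenchyme markers, in CLT (dark) and CLH (light), with black lines at list medians. In CLT the FOXM1 targets all lie above 0 (median 0.73), the hair list has a median of 4.38 and the mesenchyme list one of -1.49, whereas CLH medians lie near 0. The CLT median of the hair list depends in part on the filter on low values.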

How the data were processed

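The RNA-seq libraries were grouped by their titles into 4 groups of 2, CLH or CLT from cKO or Ctrl mice. The submitters' processing notes name FastQC 0.72, Trim Galore 0.4.3.1, STAR 2.6.0b-1, featureCounts 1.6.3, DESeq2 2.11.40.2 and the build mm10. The authors deposited RPKM per gene and library, with gene lengths. The annotation, the strand setting and the RPKM total are not given in the sources used here. Products of RPKM and gene length were whole numbers of reads (tolerance 0.01) for 100% of those checked, which gave reads and library totals. 0 columns of values were left unused.

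From these RPKM values, log2(RPKM + 1) was compared in R 4.3.3 by limma 3.58.1, its moderated variances following a trend over mean level, for 14148 genes at 1 RPKM or more in at least 2 of the 8 libraries. P-values were adjusted by Benjamini-Hochberg over all genes tested, with a threshold of 0.05. A fold change on this scale understates the change of low genes. Each comparison of 2 groups used its own 4 libraries, and the difference between regions used all 8. Intervals of read ratios are exact binomial at 95%. The alternatives were a pseudocount of 0.1, no filter, median-of-ratios scaling, all 8 libraries in 1 fit, a replicate block, voom on recovered reads, each library left out, and, chosen after seeing the data, a block with crossed numbers. The fits were tested on simulated data in which all groups had the same spread. That test does not cover the wider spread of the Ctrl CLT pair.

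The members, role groups, cell type lists (dental epithelium, ameloblast, mesenchyme, endothelial, T cell, leukocyte, melanocyte, Schwann and neural, ciliated, skeletal muscle) and lists tied to forkhead factors were chosen with earlier results of these data known. Members were given in every library if the study names them, if they passed a test, if a fitted log2 fold change between 2 groups reached 1 in size, if they were among the 5 with the highest mean RPKM, or if they were the extremes of a comparison. From lists, the genes past the threshold, the extremes and the first markers were named, and *Gli1*, *Hoxc13*, *Tyrp1*, *Mlana*, *Myh4* and genes beside members were chosen after their values were seen. Some single genes of the lists are not reported here. Promoter windows came from RefSeq (GRCm38.p6), and overlaps of exons from GENCODE M21.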

Additional observations from a re-analysis of the deposited data

Results flagged for a closer look

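For 11 members the cKO effects in CLT and CLH stood apart. In 7 of them the difference itself passed the threshold (limma over all 8 libraries): *Foxc1* (1.78), *Foxe1* (1.27), *Foxf1a* (-2.96), *Foxf2* (-3.62), *Foxi3* (-1.27), *Foxm1* (0.86) and *Foxq1* (1.22), each as the log2 effect in CLT minus that in CLH. *Foxe1* was tested only because of its level in cKO CLT, so its pass follows from the filter. In the other 4, both cKO libraries lay on one side of both Ctrl libraries in CLT and on the opposite side in CLH: *Foxj3* (0.41), *Foxo1* (-0.77), *Foxo6* (-0.82) and *Foxp1* (0.72). The difference did not pass in these 4, with adjusted p of 0.15, 0.16, 0.062 and 0.12. *Foxj3* had 10.99 and 12.3 RPKM (Ctrl CLH), 9.95 and 10.2 (cKO CLH), 7.39 and 9.14 (Ctrl CLT), and 9.86 and 9.69 (cKO CLT), so the steps were small in both regions. All 11 rest on the Ctrl CLT pair, whose libraries differ most.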

How the results depend on the processing

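With 2 libraries a group and Ctrl CLT libraries that differ, the counts of members past the threshold depended on the fit. In CLT, cKO against Ctrl, the 1 member became 13 in a fit of all 8 libraries (6183 of all genes in place of 248), and 0 with no filter (52 genes) or by voom (0 genes, 11 members at an unadjusted p under 0.05), and the range was 0 to 17 with libraries left out (11 to 9838 genes). Between CLT and CLH in Ctrl it was 4 with all 8 libraries (837 genes in place of 1) and 0 to 18 with a library left out (0 to 7537 genes). For the difference between regions, 7 became 0 to 16 with a library left out (198 to 8932 genes). In each of these ranges the upper end came without 1 of the Ctrl CLT libraries. In CLH the count was 0 in every fit, and in cKO CLT against CLH it was 14 to 17.

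Replicate numbers were not shown to pair the libraries by the labels, which do not tie a number to a litter. Correlations of deviations for equal numbers were 0.066 between cKO and Ctrl in CLH, -0.19 between them in CLT, 0.20 between CLH and CLT in Ctrl and 0.31 between CLH and CLT in cKO. With a replicate block the CLT count was 5 (1744 genes), and with crossed numbers, chosen after seeing the data, 0 (9 genes). For the difference between regions the block gave 5 members (1448 genes in place of 2494). Between CLT and CLH it gave 0 members in Ctrl and 17 in cKO. Median-of-ratios scaling raised the median of all genes by 0.15 in Ctrl and 0.20 in cKO between CLT and CLH, and the members' median in cKO went from -0.05 to 0.15. It also left 5270 genes higher and 4884 lower in cKO, in place of 4084 and 6384. *Foxn1* between CLT and CLH in Ctrl was 1.66, and with a library left out it ran from -0.021 (without Ctrl CLT 1, a reversed sign) to 3.34 (without Ctrl CLT 2). Of 556 values of single genes under alternatives, 426 stayed on their side of the threshold, 66 lost it and 63 gained it in the same direction, and the cause was not tested. Members under about 0.1 RPKM rest on a few reads, where depth limits any comparison.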

Other observations

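Members under the limit for testing included some with a pattern by library. *Foxd3*, a factor of neural crest and of Schwann cell and melanocyte precursors, had 4, 5, 10 and 14 reads in the CLH libraries (Ctrl 1, Ctrl 2, cKO 1, cKO 2), 10 and 0 (Ctrl CLT), and 25 and 26 (cKO CLT). The 51 cKO CLT reads against 10 Ctrl CLT reads gave a ratio of 5.15 (95% interval 2.59 to 11.4, counting error only). Schwann and neural genes (5 of 5 found) summed to 37.7 and 33.8 RPKM (Ctrl CLT) and 97.4 and 100.2 (cKO CLT). *Foxj1*, the switch for motile cilia, had 26 to 50 reads in every library. The ciliated cell genes *Rsph1*, *Tekt1* and *Ccdc39* summed to 0.602 to 4.03 RPKM, and factors upstream of *Foxj1* (6 of 8 found) to 9.34 to 11.5 RPKM. *Foxr1*, a germ line gene, had 5 to 33 reads. *Foxl1*, a factor of gut mesenchyme and the neighbour of *Foxc2*, had 12 to 21 reads in CLH, 9 and 6 (Ctrl CLT) and 6 and 4 (cKO CLT).

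The endoderm factors *Foxa1*, *Foxa2* and *Foxa3* had 0, at most 2 and at most 4 reads in any library. *Foxa1*, *Foxb2*, *Foxi2* and *Foxl2* had 0 reads in all 8. *Foxi1*, the relative of *Foxi3* in the ear and kidney, had 1 read in all. Of the lists not yet described, ameloblast genes (6 of 6 found) summed to 12455 to 14258 RPKM in CLH, 84432 and 37295 (Ctrl CLT), and 19.4 and 15.5 (cKO CLT), where all 6 fell by limma. Leukocyte genes (4 of 5 found) summed to 115 and 158 RPKM (Ctrl CLT) and 94.2 and 89.0 (cKO CLT).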
